A study of Mus musculus with 10 samples.

Results

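Forkhead genes encode transcription factors that share the forkhead box, a winged-helix DNA-binding domain, and the family includes Foxd1, the gene whose name the Cre allele of this study carries. The members described here are the rows of the count table whose symbol is Fox, a letter from a to s and a number, without Foxa2, Foxc1, Foxc2 and Foxj1. This gave 40 genes of the 38720 symbols in the table, out of 44 symbols of that form. All 40 matched a gene of the same name in GENCODE M21 (GRCm38, the mm10 build).

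RNA was sequenced from the microdissected tail bud of mouse embryos at E12.5, in a study of the Lin28/let-7 pathway and the lengthening of the caudal body axis. The Lin28a-induced embryos (replicates 2, 3, 4 and 5, n = 4) carried TRE-Lin28a, a Lin28a transgene under a doxycycline-responsive promoter, together with RLSL-rtTA, the Cre-dependent activator of that promoter, and FoxD1-Cre, and were treated with doxycycline. The no-Cre embryos (replicates 6, 7 and 8, n = 3) also carried TRE-Lin28a and RLSL-rtTA and were also treated with doxycycline. The wild-type embryos (replicates 1, 2 and 3, n = 3) are labelled wild type, with no transgene and no doxycycline named. How the FoxD1-Cre allele was built, and whether its carriers have 1 or 2 intact copies of Foxd1, is not given in the sources used here, and no group carried FoxD1-Cre without the Lin28a transgene, so an effect of the Cre allele and an effect of Lin28a cannot be told apart in these groups. The labels do not say whether replicates came from separate litters, so p-values measure the spread between these libraries.

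Most forkhead factors bind DNA as monomers, and subfamilies named by letter have different roles. FoxA proteins open compacted chromatin and mark endoderm and floor plate, FoxD genes act in neural crest and in stromal mesenchyme, and FoxF and FoxL1 act in mesenchyme under Hedgehog signals. FoxM1 drives genes of mitosis, FoxO proteins are held in the cytoplasm by insulin and Akt signalling, FoxP proteins are repressors that dimerise, and FoxK proteins are broadly expressed repressors. In the embryo Foxd1 is best known from the stroma of the kidney, and FoxD1-Cre lines are widely used to reach that stroma and the pericytes derived from it.

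Libraries held 21762668 to 39517946 counts. Levels below are CPM (counts scaled to a common library total, on library sizes with TMM factors), and tests are the quasi-likelihood test of edgeR over all 16340 genes that passed its filter, with Benjamini-Hochberg adjustment and a threshold of 0.05. Lin28a stood at 605 to 750 CPM in the 4 Lin28a-induced libraries, at 2.64 to 5.03 CPM in the no-Cre libraries and at 4.45 to 6.16 CPM in wild type, which matched the labels in all 10 libraries. The wild-type libraries stood apart. Mitochondrially encoded transcripts took 1.85 to 2.69% of their counts against 0.446 to 0.69% in the other 7 libraries, and annotated pseudogenes took 0.296 to 0.351% against 0.132 to 0.142%. Xist and Ddx3y counts marked Lin28a-induced replicate 5 and no-Cre replicate 7 as female and the other 8 libraries as male.

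The tissue label was checked against 12 tail bud progenitor markers. All 12 were detected, and their summed level was 864 to 1220 CPM in the Lin28a-induced libraries, 922 to 935 CPM in the no-Cre libraries, and 764, 368 and 780 CPM in wild-type replicates 1, 2 and 3. Wild-type replicate 2 therefore held less of these transcripts than any other library. Against wild type, 5 of the 12 rose in the Lin28a-induced and 6 in the no-Cre group, Cdx1, Cdx2 and Cyp26a1 in both, and 0 fell. In dissected tissue, fewer cells of a type and less RNA per cell cannot be told apart.

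Of the 40 forkhead genes, 25 passed the filter and 15 did not. Compared per kilobase of exon, the highest level was that of Foxk2, a broadly expressed repressor, at 37.7 CPM per kb in the Lin28a-induced mean, 40.4 in the no-Cre mean and 26.8 in the wild-type mean. Foxo4 (34.8, 38.9 and 35.3 CPM per kb in the same order), Foxb1 (34.4, 32.7 and 36.7) and the mitotic factor Foxm1 (29.5, 27.0 and 20.1) came next. Their order is not the same in the 3 groups. The Foxo4 and Foxb1 ranges overlapped within the Lin28a-induced group and within wild type, and Foxb1 was the highest forkhead gene of the wild-type means. Foxd1 was low, at 1.04, 1.73 and 1.33 CPM per kb.

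**Figure D1:**
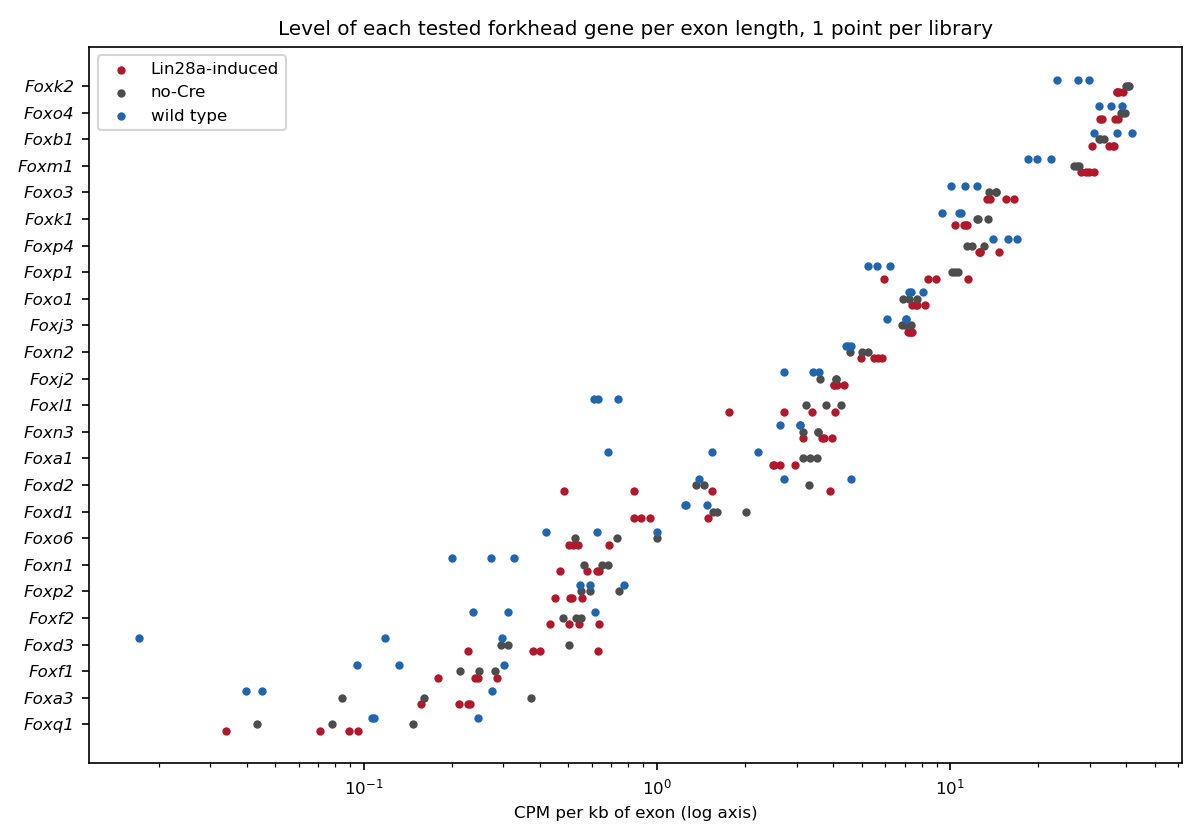
CPM per kb of exon (log axis) for the 25 tested forkhead genes, 1 point per library, coloured by group and ordered by the no-Cre mean. Foxk2, Foxo4, Foxb1 and Foxm1 lie at the top, Foxd1 near 1, and the wild-type points of Foxl1 lie apart from the points of the other 2 groups.

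Foxd1 is a single-exon gene of 5064 bases on the plus strand (chr13:98354242-98359305, mm10). Its level was 4.49, 4.82, 4.23 and 7.60 CPM in Lin28a-induced replicates 2 to 5. It was 10.2, 7.89 and 8.13 CPM in no-Cre replicates 6 to 8, and 6.32, 6.37 and 7.53 CPM in wild-type replicates 1 to 3. All 4 Lin28a-induced libraries lay below all 3 no-Cre libraries, and replicate 5 alone of the Lin28a-induced libraries reached the wild-type range. These values rest on 135 to 392 reads per library.

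The mean Foxd1 level was 5.28 ± 1.56 CPM (SD, n = 4) in the Lin28a-induced group, 8.75 ± 1.28 CPM (SD, n = 3) without Cre and 6.74 ± 0.684 CPM (SD, n = 3) in wild type. Against no-Cre, the log2 fold change in the Lin28a-induced group was -0.72 ± 0.19 (SE), 0.606-fold, with an adjusted p of 0.0572 in edgeR. This missed the threshold by little, and the unadjusted p was 0.00182. Against wild type the log2 fold change was -0.34 ± 0.19 (adjusted p = 0.159) for the Lin28a-induced group and 0.38 ± 0.20 (adjusted p = 0.149) for the no-Cre group, so the wild-type mean lay between the other 2 means without differing from either beyond the threshold.

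Replicate 5, the female Lin28a-induced library, set much of the spread of Foxd1. It held 7.60 CPM beside 7.89 CPM in the female no-Cre library, whereas the 3 male Lin28a-induced libraries held 4.23 to 4.82 CPM beside 10.2 and 8.13 CPM in the 2 male no-Cre libraries. The female library was the highest of the Lin28a-induced group and the lowest of the no-Cre group. With 1 female library in each of these groups, replicate 5 and its sex cannot be told apart. Its Lin28a level, 731 CPM, was within the range of the other 3 induced libraries. Without replicate 5 the log2 fold change against no-Cre was -0.96 with an adjusted p of 0.00786 (edgeR), and against wild type it was -0.58 with an adjusted p of 0.00797. With only the 8 male libraries, a setting chosen after the data were seen, it was -1.03 (adjusted p = 0.037, edgeR) against no-Cre and -0.57 (adjusted p = 0.0127) against wild type. With all 10 libraries and sex as a covariate, a planned setting, it was -0.74 (adjusted p = 0.0595) against no-Cre, which did not pass. Direction did not change: Foxd1 was lower in the Lin28a-induced group than in no-Cre under each of the 11 other settings and with each of the 10 libraries left out, with log2 fold changes between -1.03 and -0.60.

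The call itself moved with the setting. Foxd1 passed the threshold against no-Cre under 6 of those 11 settings, among them DESeq2 (adjusted p = 0.00912), limma-voom (0.0346) and only the 2 groups compared (0.0452). It passed with 2 of the 10 libraries left out, Lin28a-induced replicate 5 and wild-type replicate 2 (0.0308). The adjusted p reached 0.253 in edgeR without no-Cre replicate 6, the library with the highest Foxd1 level.

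**Figure D2:**
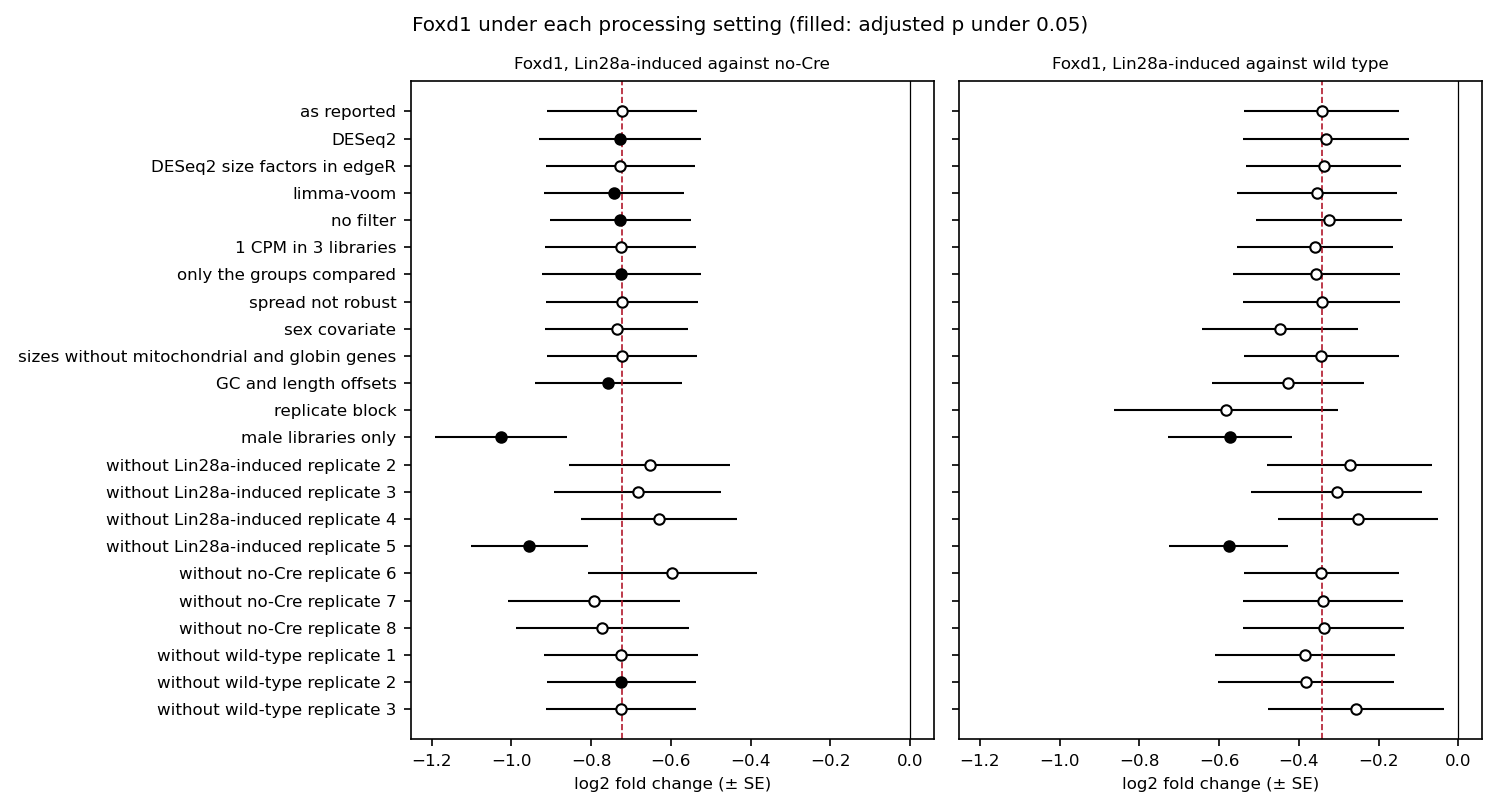
Log2 fold change of Foxd1 (± SE) under each processing setting, against no-Cre on the left and against wild type on the right, with a dashed line at the reported value; filled points have an adjusted p under 0.05. All points lie below 0, and the points without Lin28a-induced replicate 5 and with male libraries only lie farthest from 0 on the left, at -0.96 and -1.03.

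GENCODE places 13 other genes within 500 kb of Foxd1, of which 9 were tested. Against no-Cre 1 of these 9 was called, Btf3, a nascent-chain binding factor, which fell in the Lin28a-induced group (log2 fold change -0.22 ± 0.05, edgeR adjusted p = 0.0308). Their log2 fold changes ran from -0.22 to 0.35, with a median of 0.11. Against wild type, 1 rose and 4 fell in the Lin28a-induced libraries and 5 fell in the no-Cre libraries. The farthest from 0 was the predicted gene Gm10320, at 0.137 to 0.348 CPM in the 7 transgene-carrying libraries and 12.8 to 15.7 CPM in wild type. Foxd1 shares 1.07% of its 32-base words with other genes, chiefly Foxd2 and Foxd3.

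Foxd2, a paralog expressed in paraxial and head mesenchyme, differed more between embryos than any other member with a mean of 1 CPM or more in each group. Its level was 1.25, 4.01, 2.16 and 10.1 CPM in Lin28a-induced replicates 2 to 5. It was 8.60, 3.75 and 3.53 CPM in no-Cre replicates 6 to 8 and 3.62, 11.9 and 7.02 CPM in wild-type replicates 1 to 3. The 3 groups overlapped throughout, and the coefficient of variation among the Lin28a-induced libraries was 90.9%, against a median of 9.31% over the 25 tested members in that group. No comparison passed the threshold, with adjusted p-values from 0.433 to 0.915 (edgeR).

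Foxd3 specifies neural crest and keeps its precursors undifferentiated. It stood at 0.528, 0.929, 0.878 and 1.47 CPM in Lin28a-induced replicates 2 to 5 and at 1.17, 0.685 and 0.721 CPM in no-Cre replicates 6 to 8. Wild-type replicates 1 to 3 held 0.0398, 0.690 and 0.275 CPM, from 1, 17 and 6 reads. The groups overlapped. The rise over wild type in the Lin28a-induced group passed the threshold narrowly (log2 fold change 1.51 ± 0.58, edgeR adjusted p = 0.0437), and the call was lost with 8 of the 10 libraries left out in turn, with adjusted p-values up to 0.131. It was 0.97 without wild-type replicate 1 and 2.64 without wild-type replicate 2. For the no-Cre group it was 1.36 ± 0.61 (adjusted p = 0.0881). In the Lin28a-induced group against no-Cre it was 0.15 ± 0.48. Of the 12 neural crest markers, Sox10 and Pax7 stayed under 1 CPM in all libraries. The summed level of the 12 was 284 to 321 CPM in the Lin28a-induced, 289 to 296 CPM in the no-Cre and 474 to 598 CPM in the wild-type libraries. Tfap2b took 27.7 ± 1.61 CPM of it in the Lin28a-induced and 175 ± 30.1 CPM in the wild-type libraries (SD, n = 4 and 3). Of the 9 tested, 2 rose over wild type in the Lin28a-induced group, Foxd3 itself and Ets1 (0.38 ± 0.10), and 4 fell: Tfap2b (-2.66 ± 0.10), Erbb3 (-1.41 ± 0.11), Tfap2a (-1.32 ± 0.16) and Snai2 (-1.05 ± 0.11). In the no-Cre group the same 4 genes fell and 0 rose. The part of neural crest cells in the Foxd3 value was not tested. A share of 5.32% of the 32-base words of Foxd3 also occurs in other genes. Foxd4, the remaining FoxD gene, had 4 reads in all 10 libraries.

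**Figure D3:**
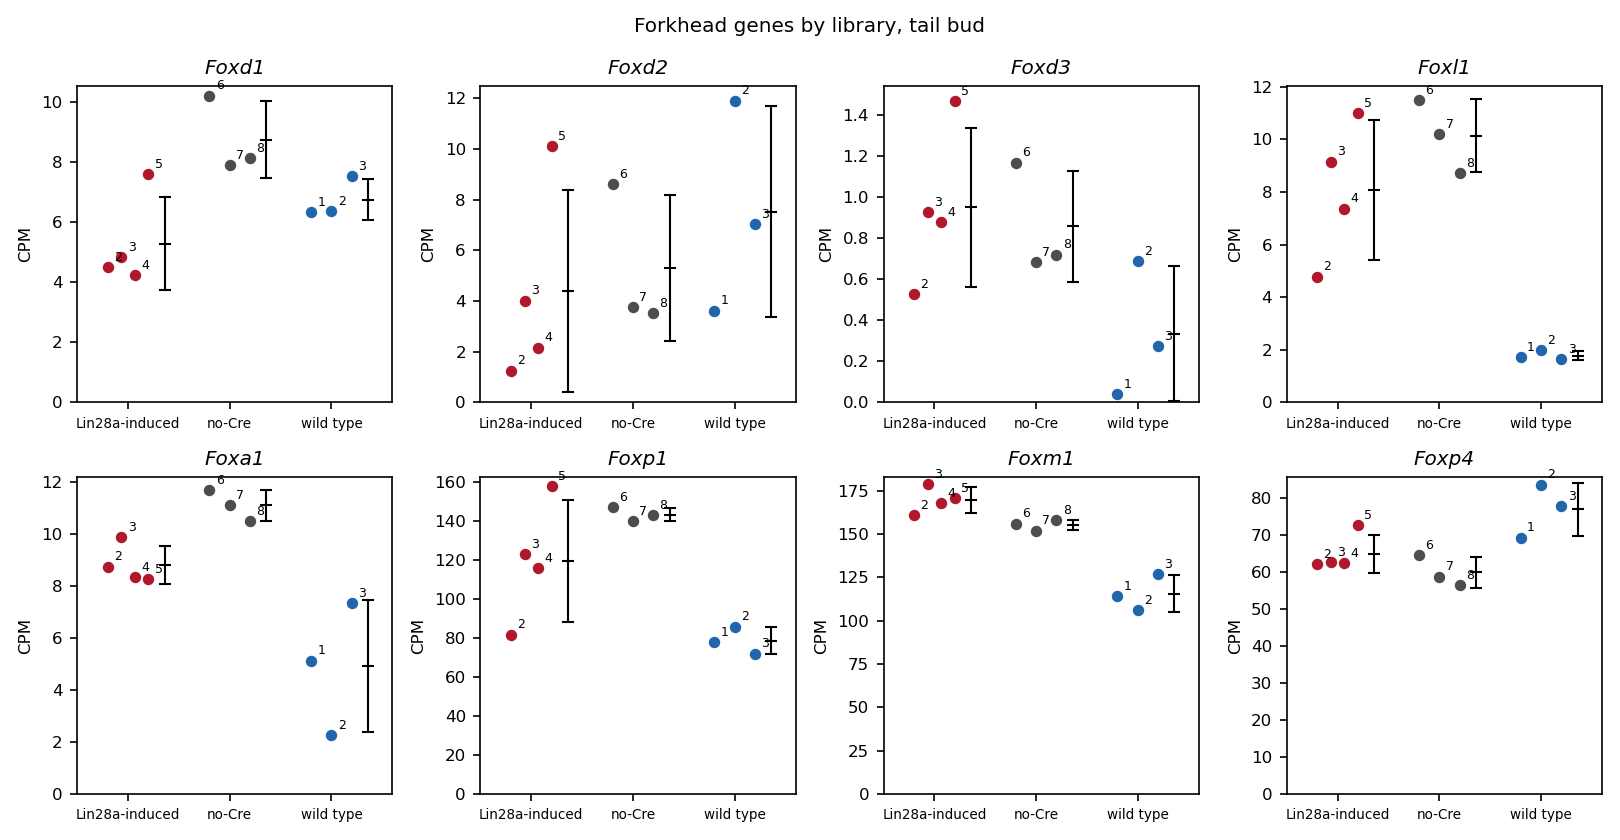
CPM of 8 forkhead genes in each library, with replicate numbers beside the points and the mean ± SD of each group as bars (n = 4, 3 and 3). Foxd1 is lower in the 4 Lin28a-induced libraries than in the 3 no-Cre libraries, Foxd2 overlaps across groups, and Foxl1, Foxa1 and Foxm1 are lower in all 3 wild-type libraries than in the other 7.

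Across the family, none of the 25 tested members passed the threshold between the Lin28a-induced and no-Cre groups. Over all tested genes, 2.91% were called in this comparison (1.76% higher and 1.15% lower in the Lin28a-induced group). The count was 0 of 25 members in edgeR, with 5 of 25 at an unadjusted p under 0.05 (2658 of the 16340 genes). DESeq2 called 2 members, limma-voom 1, and edgeR on only the 2 groups compared called 4, each of them lower in the Lin28a-induced group. The median log2 fold change of the 25 was -0.07, beside -0.0008 over all tested genes. Of the 4 forkhead genes that the rule leaves out, Foxc1, a factor of paraxial and vascular mesenchyme, fell in this comparison, from 265 ± 15.6 CPM (SD, n = 3) without Cre to 204 ± 3.92 CPM (SD, n = 4) in the Lin28a-induced group (log2 fold change -0.38 ± 0.09, edgeR adjusted p = 0.0445). That call was lost with no filter (adjusted p = 0.0565), with a spread estimate that was not robust (0.0511), with a sex covariate (0.0685) and with male libraries only (0.318). It was also lost with 8 of the 10 libraries left out in turn, with adjusted p-values up to 0.189, the exceptions being wild-type replicate 2 and wild-type replicate 3.

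After Foxd1, the smallest adjusted p in this comparison was that of Foxk1, a repressor that also acts in metabolic and autophagy control. Foxk1 stood at 78.9, 86.3, 84.8 and 86.4 CPM in Lin28a-induced replicates 2 to 5, at 93.8, 94.3 and 102 CPM in no-Cre replicates 6 to 8, while wild-type replicates 1 to 3 held 82.7, 71.4 and 81.2 CPM. Every Lin28a-induced library lay below every no-Cre library. The log2 fold change was -0.20 ± 0.06 with an adjusted p of 0.0953 (edgeR), and it passed the threshold in DESeq2 (0.049), with only the 2 groups compared (0.00864), with GC and length offsets (0.0184) and without wild-type replicate 2 (0.0105). In the no-Cre group Foxk1 was above wild type (0.30 ± 0.07, adjusted p = 0.00229), and the Lin28a-induced group did not differ from wild type beyond the threshold (0.10 ± 0.06, adjusted p = 0.187).

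Foxk1 is also 1 of 3 members whose annotated 3′ UTR holds a match to the let-7 seed. Of the 40 members, Foxe3 and Foxi3 had no annotated 3′ UTR of at least 30 bases and were not searched. Lin28a blocks the maturation of let-7, whose bases 2 to 8 pair with target sites, so the mature sequences and the member sites are given here from RefSeq (GRCm38.p6) and GENCODE M21 transcripts. The seed is in capitals in the microRNAs and its complement CTACCTC is in capitals in the sites, all written 5′ to 3′ in the sense of the transcript. let-7j differs from the others within the seed.
let-7a-5p: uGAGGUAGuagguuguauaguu
let-7d-5p: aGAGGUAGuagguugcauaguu
let-7j: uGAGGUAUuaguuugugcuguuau
Foxk1, base 1075 of the 3′ UTR: tggaaaggaaaCTACCTCtccggacagca
Foxn4, base 159: tggcaagccctCTACCTCcccatcttctg
Foxp2, base 2060: tctgaaagcttCTACCTCtgcaaaaaaga
Foxp2, base 3190: aagaaaactgcCTACCTCtaacaccaggg
Over all genes, 2114 of 20519 annotated 3′ UTRs (10.3%) held this match, searched on the transcript strand only. Foxp2, a repressor known from neural development, was at 7.36, 8.42, 8.25 and 9.07 CPM in the Lin28a-induced libraries, 9.05, 9.65 and 12.2 CPM in the no-Cre libraries and 8.95, 12.6 and 9.69 CPM in wild type, and did not pass the threshold in any comparison (adjusted p = 0.29, 0.07 and 0.931 in edgeR). Between the Lin28a-induced and no-Cre groups the log2 fold change of Foxp2 was -0.31 ± 0.14. The part of let-7 in the Foxk1 and Foxp2 values was not tested. Foxn4 had 11 reads in all and was not tested. A match in sequence is a description, and mature let-7 was not analysed here.

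Against wild type many forkhead genes differed, as did many other genes. In the Lin28a-induced group 12 of 25 members (48%) were called, 11 higher and 1 lower, where 49.3% of all tested genes were called (24.3% higher and 25% lower). In the no-Cre group 10 of 25 members (40%) were called, 9 higher and 1 lower, where 42.5% of all tested genes were called (21% higher and 21.4% lower). The share of members called was thus near the background in both comparisons. The same background shares apply to the counts of each gene list against wild type. The median log2 fold change of the 25 members was 0.31 in the Lin28a-induced and 0.30 in the no-Cre group, beside -0.02 over all tested genes in each. The 2 comparisons share their wild-type libraries.

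**Figure D4:**
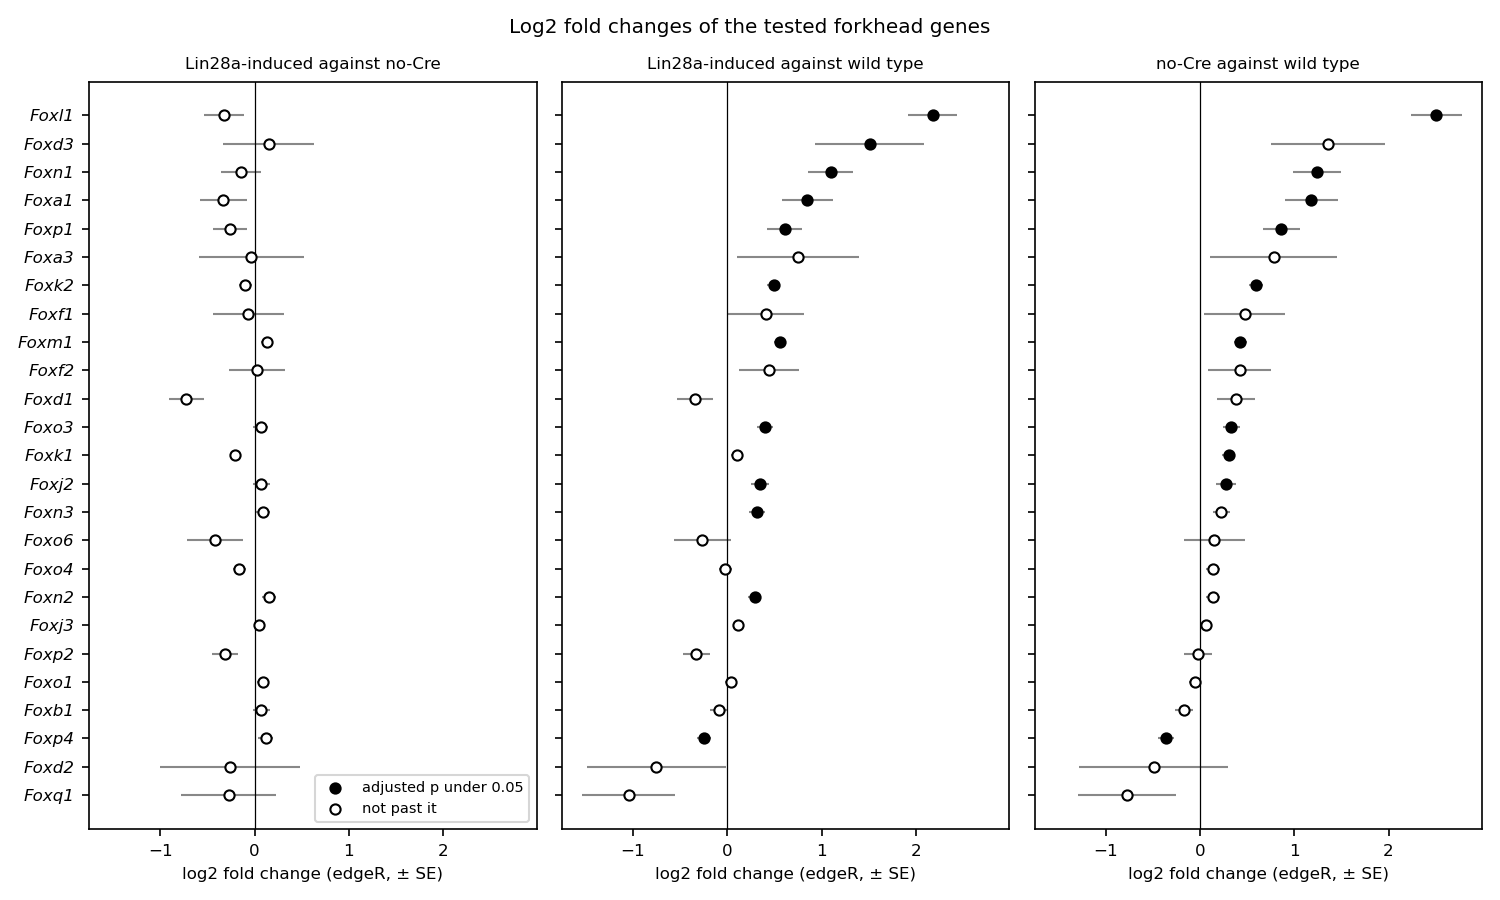
Log2 fold change (edgeR, ± SE) of the 25 tested forkhead genes in the 3 comparisons, ordered by the value in no-Cre against wild type; filled points have an adjusted p under 0.05. No point is filled on the left, where Foxd1 lies farthest below 0, and Foxl1 is the highest point in the other 2 panels at 2.18 and 2.50.

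Foxl1, a factor of gut mesenchyme, had the largest difference from wild type among the called members. It stood at 4.78, 9.15, 7.37 and 11.0 CPM in Lin28a-induced replicates 2 to 5, at 11.5, 10.2 and 8.72 CPM in no-Cre replicates 6 to 8, while wild-type replicates 1 to 3 held 1.71, 1.99 and 1.65 CPM. The wild-type libraries were lower than all others, while the Lin28a-induced and no-Cre ranges overlapped. The rise was 4.53-fold in the Lin28a-induced group (log2 2.18 ± 0.26, edgeR adjusted p = 2.56e-05) and 5.67-fold in the no-Cre group (2.50 ± 0.27, adjusted p = 1.64e-05). Between these 2 groups it was -0.33 ± 0.22 (adjusted p = 0.516).

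Foxl1 lies on chromosome 8 in a cluster with Foxf1 and Foxc2, 9.0 kb from Foxc2 and 39.8 kb from Foxf1. Foxc2, which acts in paraxial mesoderm and lymphatic vessels and is not among the 40 members, was also higher over wild type, by 2.08 ± 0.13 on the log2 scale in the Lin28a-induced and 2.36 ± 0.14 in the no-Cre group (edgeR adjusted p = 3.42e-07 and 2.73e-07). Foxf1, a Hedgehog-responsive gene of lateral and gut mesenchyme in the same cluster, stayed at 0.230 to 0.730 CPM in all 10 libraries and was not called in any comparison. On chromosome 13, Foxq1 and Foxf2 lie 64.8 kb apart, and neither was called: Foxf2 ranged from 0.557 to 1.50 CPM and Foxq1 from 0.165 to 1.19 CPM. Foxq1 shares 65.9% of its 32-base words with A530084C06Rik on the other strand. The libraries were made with a directional kit, but the strand setting of the counting is not given in the sources used here, so Foxq1 is uncertain.

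Of the FoxA genes, Foxa1, an endoderm and floor plate factor, stood at 8.74, 9.87, 8.34 and 8.26 CPM in Lin28a-induced replicates 2 to 5, at 11.7, 11.1 and 10.5 CPM in no-Cre replicates 6 to 8, while wild-type replicates 1 to 3 held 5.13, 2.27 and 7.35 CPM. The 3 groups did not overlap. It rose over wild type by 0.85 ± 0.27 in the Lin28a-induced group (edgeR adjusted p = 0.0222) and by 1.18 ± 0.28 in the no-Cre group (adjusted p = 0.0063), on the log2 scale. Between the first 2 groups it was -0.33 ± 0.25 (adjusted p = 0.584). The call for the Lin28a-induced group was lost without Lin28a-induced replicate 3 (adjusted p = 0.0534), without wild-type replicate 1 (0.0555), with no filter (0.0642) and with male libraries only (0.0551). Without wild-type replicate 2, the library with the lowest Foxa1 level, the rise was 0.50 (adjusted p = 0.0106). Foxa1 was the only member with the forkhead motif TGTTTAC on either strand of its RefSeq promoter window (250 bases before to 50 after the start, GRCm38.p6), among 26 members with a window; 3.55% of all 27025 windows held it. Foxa3, the third FoxA gene, had 120 reads in all, at 0.0811 to 0.756 CPM.

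Foxm1, which drives genes of the G2 phase and mitosis, was at 161, 179, 168 and 171 CPM in Lin28a-induced replicates 2 to 5, at 156, 152 and 158 CPM in no-Cre replicates 6 to 8, while wild-type replicates 1 to 3 held 114, 106 and 127 CPM. The wild-type libraries were lower than the other 7. The rise was 0.56 ± 0.06 in the Lin28a-induced group (edgeR adjusted p = 1e-05) and 0.43 ± 0.07 in the no-Cre group (adjusted p = 0.000216). Between these 2 groups it was 0.13 ± 0.06 (adjusted p = 0.321). Among 18 listed targets of FoxM1 and B-Myb, 7 rose and 2 fell in the Lin28a-induced group, and 7 rose and 1 fell in the no-Cre group, with medians of 0.14 and 0.13. The share called was near that over all tested genes, 49.3% and 42.5%. The mitotic kinases Nek2 (0.52 ± 0.06 and 0.48 ± 0.06) and Aurkb (0.36 ± 0.05 and 0.36 ± 0.06) and the cell cycle factor Mybl2 (0.50 ± 0.07 and 0.36 ± 0.07) had the smallest adjusted p-values. Cdk1 fell in both groups (-0.15 ± 0.05 and -0.16 ± 0.05), and Cenpf was called lower in the Lin28a-induced group (-0.33 ± 0.10). None of the 18 was called between the Lin28a-induced and no-Cre groups, where their median was 0.01. The same 18 genes summed to 3540 to 3910 CPM in the 7 transgene-carrying libraries and 3570 to 3720 CPM in wild type, so their summed level overlapped.

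The FoxO factors are restrained by insulin and Akt signalling and drive genes of metabolism and cell cycle arrest. Foxo3 stood at 101, 104, 125 and 118 CPM in Lin28a-induced replicates 2 to 5, at 109, 109 and 103 CPM in no-Cre replicates 6 to 8, while wild-type replicates 1 to 3 held 85.2, 76.2 and 93.7 CPM. It rose over wild type by 0.40 ± 0.08 in the Lin28a-induced group (edgeR adjusted p = 0.0015) and by 0.33 ± 0.09 in the no-Cre group (adjusted p = 0.00865), and was 0.06 ± 0.08 between them. Foxo1 (60.0 to 71.2 CPM) and Foxo4 (112 to 138 CPM) were not called in any comparison, and all 3 groups overlapped for Foxo1. Foxo4 was lower in every Lin28a-induced library (113 to 130 CPM) than in every no-Cre library (134 to 138 CPM), with an adjusted p of 0.26 (edgeR). Foxo6 ranged from 1.10 to 2.62 CPM. Of 21 genes of the FoxO pathway and its targets, 7 rose and 7 fell in the Lin28a-induced group against wild type, 5 rose and 6 fell in the no-Cre group, and none was called between the Lin28a-induced and no-Cre groups. Catalase (Cat) rose by 0.40 ± 0.06 and 0.61 ± 0.06 over wild type. The phosphatidylinositol 3-kinase subunit Pik3r1 fell, with log2 fold changes of -0.45 ± 0.07 and -0.63 ± 0.07. The cell cycle inhibitor Cdkn1b also fell in both groups, with log2 fold changes of -0.41 ± 0.05 and -0.35 ± 0.06.

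FoxP factors are repressors that dimerise through a leucine zipper. Foxp1 stood at 81.7, 123, 116 and 158 CPM in Lin28a-induced replicates 2 to 5, at 147, 140 and 143 CPM in no-Cre replicates 6 to 8, while wild-type replicates 1 to 3 held 77.8, 85.8 and 72.0 CPM. The Lin28a-induced libraries spanned nearly the whole range, with replicate 2 inside the wild-type range and replicate 5 above all others. The rise over wild type was 0.86 ± 0.20 in the no-Cre group (edgeR adjusted p = 0.00749) and 0.61 ± 0.19 in the Lin28a-induced group (adjusted p = 0.0237). The latter call was lost without Lin28a-induced replicate 3 (adjusted p = 0.0502) and without wild-type replicate 1, 2 or 3 (0.0646, 0.0664 and 0.0844). Between the Lin28a-induced and no-Cre groups the log2 fold change was -0.26 ± 0.18 (adjusted p = 0.564).

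Foxp4 was the only member called lower than wild type in the reported fit. It stood at 62.1, 62.5, 62.3 and 72.5 CPM in Lin28a-induced replicates 2 to 5, at 64.4, 58.7 and 56.4 CPM in no-Cre replicates 6 to 8, while wild-type replicates 1 to 3 held 69.2, 83.5 and 77.8 CPM. The no-Cre libraries lay below all wild-type libraries, and Lin28a-induced replicate 5 lay within the wild-type range. The fall was -0.36 ± 0.08 in the no-Cre group (edgeR adjusted p = 0.00325) and -0.24 ± 0.08 in the Lin28a-induced group (adjusted p = 0.0167), on the log2 scale. The second call was lost without wild-type replicate 2 (adjusted p = 0.0642). Between the 2 groups it was 0.12 ± 0.08 (adjusted p = 0.505). Of 15 partners of forkhead factors, among them corepressors and SMAD proteins, 6 rose and 1 fell in the Lin28a-induced group against wild type. In the no-Cre group 8 rose and 1 fell. Over all tested genes, 49.3% and 42.5% were called in these comparisons. None of the 15 was called between the Lin28a-induced and no-Cre groups. The corepressor Ctbp1 rose by 0.49 ± 0.07 and 0.39 ± 0.08 and the deacetylase Hdac1 by 0.25 ± 0.05 and 0.28 ± 0.05. The corepressor Sin3b fell, with log2 fold changes of -0.15 ± 0.05 and -0.29 ± 0.06.

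Foxk2, the member with the highest level in CPM, stood at 196, 196, 198 and 204 CPM in Lin28a-induced replicates 2 to 5, at 215, 210 and 213 CPM in no-Cre replicates 6 to 8, while wild-type replicates 1 to 3 held 144, 122 and 157 CPM. The 3 groups did not overlap. It rose over wild type by 0.49 ± 0.07 and 0.59 ± 0.07 on the log2 scale (edgeR adjusted p = 6.72e-05 and 3.46e-05), 1.41-fold and 1.51-fold. Against no-Cre the Lin28a-induced group was at -0.10 ± 0.07 (adjusted p = 0.535). Together with Foxl1 and Foxm1 it kept its rise over wild type in both groups under every setting tried and with each library left out.

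Of the FoxN genes, Foxn1, a factor of thymus and hair epithelium, rose over wild type by 1.10 ± 0.24 in the Lin28a-induced and 1.24 ± 0.25 in the no-Cre group (edgeR adjusted p = 0.00204 and 0.00161), from 0.643 to 1.05 CPM in wild type to 1.50 to 2.04 and 1.82 to 2.20 CPM. The wild-type libraries did not overlap the others. Foxn2, a FoxN factor that is widely expressed, rose in the Lin28a-induced group (0.29 ± 0.07, adjusted p = 0.00427), where it stood at 36.6 to 43.3 CPM beside 32.5 to 33.8 CPM in wild type. In the no-Cre group, at 33.6 to 38.6 CPM, its log2 fold change was 0.14 ± 0.08 (adjusted p = 0.166). Foxn3, a checkpoint repressor, stood at 36.3 to 45.5 CPM in the Lin28a-induced, 36.4 to 40.8 CPM in the no-Cre and 30.2 to 35.3 CPM in the wild-type libraries. It rose in the Lin28a-induced group (0.31 ± 0.09, adjusted p = 0.00797) and was 0.23 ± 0.09 (adjusted p = 0.0577) in the no-Cre group. The differences between the Lin28a-induced and no-Cre groups were 0.15 ± 0.07 for Foxn2 and 0.08 ± 0.08 for Foxn3, with adjusted p-values of 0.296 and 0.689.

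Foxj2, a widely expressed activator, rose over wild type by 0.35 ± 0.10 in the Lin28a-induced group (edgeR adjusted p = 0.00805) and by 0.28 ± 0.10 in the no-Cre group (adjusted p = 0.0412), from 14.5 to 19.1 CPM in wild type to 21.5 to 23.2 and 19.2 to 21.9 CPM. The no-Cre call was lost with 7 of the 10 libraries left out in turn, with adjusted p-values up to 0.148 (without wild-type replicate 2, where the rise was 0.16). Its relative Foxj3 (67.2 to 81.3 CPM) was not called in any comparison. Foxb1, a gene known from the neural tube and the hypothalamus, stood at 107, 108, 104 and 91.2 CPM in Lin28a-induced replicates 2 to 5, at 96.6, 96.0 and 100 CPM in no-Cre replicates 6 to 8, while wild-type replicates 1 to 3 held 125, 92.2 and 111 CPM, with all groups overlapping and no call. A share of 12.55% of its 32-base words matches genes on the other strand, chiefly B230323A14Rik.

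The cell type markers moved with the wild-type differences. The summed level of 10 surface ectoderm markers was 368 to 413 CPM in the 7 transgene-carrying libraries and 1050 to 1260 CPM in wild type, and all 10 fell in both groups. The summed level of 10 endothelial markers was 330 to 448 CPM in those 7 libraries and 88.9 to 172 CPM in wild type, and all 10 rose in both groups. For 12 gut endoderm markers the sums were 278 to 331 and 645 to 809 CPM. Of the 10 tested, 6 fell in both groups, among them Cdh1, Krt8 and Cldn6, while 3 rose in both, among them Sox17 and Foxa1 itself. For 8 pericyte markers the sums were 239 to 305 and 150 to 192 CPM, and of the 7 tested 4 rose in the Lin28a-induced and 3 in the no-Cre group, Abcc9, Notch3 and Mcam in both, with 0 falling. The markers of blood cells and macrophages were also mostly higher outside wild type: 7 of 11 erythroid markers rose in each group, and 8 of 9 macrophage markers rose in the Lin28a-induced group, with 4 rising and 1 falling in the no-Cre group. The erythroid sums overlapped, at 3680 to 9390 CPM in those 7 libraries and 2600 to 7470 CPM in wild type. The part of these cell types in the forkhead differences was not tested. Between the Lin28a-induced and no-Cre groups, none of the surface ectoderm, endothelial, gut endoderm, pericyte, erythroid or macrophage markers was called. In that comparison 1 of the 11 mesenchyme markers tested fell, Pdgfra (-0.24 ± 0.06, edgeR adjusted p = 0.0417), with sums of 541 to 691 CPM in the Lin28a-induced and 628 to 776 CPM in the no-Cre libraries. Against wild type, 1 of these 11 rose and 3 fell in the Lin28a-induced group, and 2 rose and 3 fell in the no-Cre group.

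The sums of 2 further lists did not overlap between the Lin28a-induced and no-Cre groups. For 12 neural tube and neuron markers the sum was 54.3 to 67.1 CPM in the Lin28a-induced, 76.3 to 91.3 CPM in the no-Cre and 48.6 to 68.7 CPM in the wild-type libraries. Sox1, Pax6, Olig2, Neurog2, Tubb3, Elavl3 and Dcx stayed under 1 CPM in all libraries. Most of the sum was Sox2, which is also among the tail bud progenitor markers. Sox2 held 72.5 ± 7.83 CPM in the no-Cre and 52.4 ± 9.09 CPM in the wild-type libraries (SD). Of the 9 tested, 1 fell in the Lin28a-induced group against no-Cre, the progenitor factor Sox3 (-0.92 ± 0.18, edgeR adjusted p = 0.0138), and the median log2 fold change was -0.60. Sox3 was low, at 2.69 ± 0.421 CPM in the Lin28a-induced and 5.12 ± 0.483 CPM in the no-Cre libraries (SD). Sox2 was not called in that comparison. Against wild type, 2 of the 9 rose and 2 fell in the Lin28a-induced group, and 3 rose and 0 fell in the no-Cre group. For 9 notochord and floor plate markers, which include the forkhead genes Foxa2 and Foxj1, the sum was 429 to 554 CPM in the Lin28a-induced, 398 to 427 CPM in the no-Cre and 247 to 479 CPM in the wild-type libraries. None of the 9 was called between the first 2 groups by edgeR. Their median log2 fold change was -0.36, so sum and median went in opposite directions. Foxa2 and Foxj1 made up little of the sum, at 3.73 and 2.7 CPM in the Lin28a-induced mean. The marker T in this list is also among the tail bud progenitor markers. Against wild type, 3 rose and 2 fell in the Lin28a-induced group, and 4 rose and 2 fell in the no-Cre group. The part of these cells in the Foxd1 difference was not tested.

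**Figure D5:**
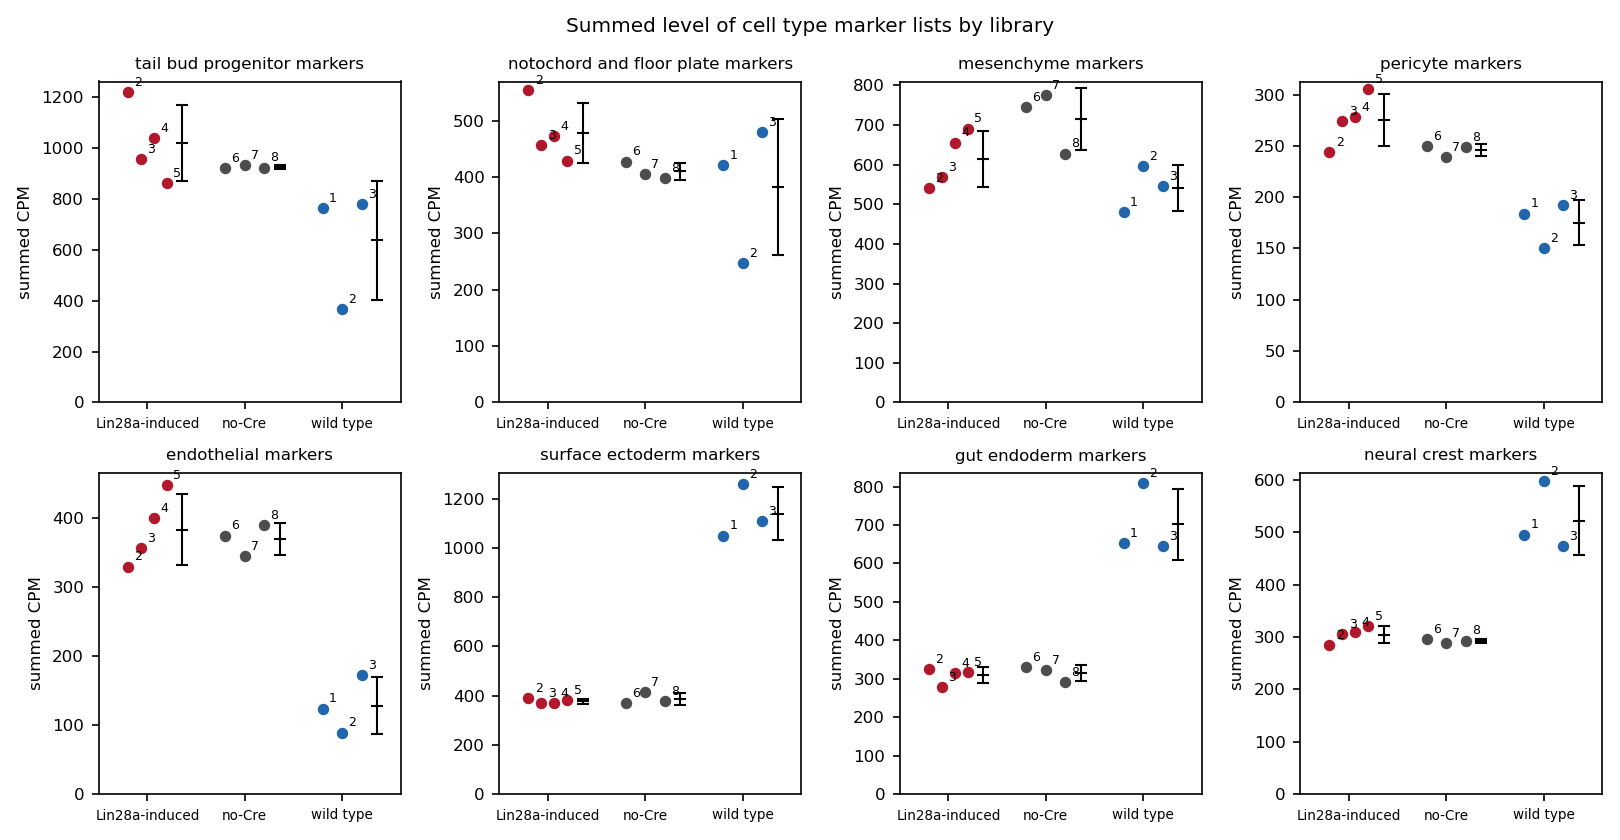
Summed CPM of 8 marker lists in each library, with replicate numbers beside the points and the mean ± SD of each group as bars (n = 4, 3 and 3). Surface ectoderm, gut endoderm and neural crest sums are higher in all 3 wild-type libraries, endothelial and pericyte sums are lower there, and wild-type replicate 2 is lowest for tail bud progenitor markers at 368.

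Hedgehog signalling feeds FoxF, FoxL1 and FoxA genes, and 13 of 14 listed genes of that pathway were tested. Against no-Cre, 1 fell in the Lin28a-induced group, the coreceptor Cdon (-0.40 ± 0.08, edgeR adjusted p = 0.0128), which stood at 51.6 ± 5.75 CPM (SD, n = 4) beside 68.1 ± 2.45 CPM (SD, n = 3). Against wild type, 4 rose and 7 fell in the Lin28a-induced group and 2 rose and 6 fell in the no-Cre group. The coreceptor Gas1 fell, with log2 fold changes of -1.60 ± 0.07 and -1.62 ± 0.08, and so did Cdon, with -1.27 ± 0.07 and -0.87 ± 0.08. The ligand Shh rose in both groups (1.05 ± 0.30 and 1.47 ± 0.31), and so did Sufu (0.23 ± 0.06 and 0.30 ± 0.06). Smo and Gli3 were called higher in the Lin28a-induced group only. The median was -0.10, -0.54 and -0.16 in the 3 comparisons.

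The forkhead genes also differed between embryos of 1 group. In the Lin28a-induced group, replicate 2 had the lowest level of the group in 16 of the 25 members and the highest in 0, and replicate 5 had the highest in 13. Replicate 2 also had the highest tail bud progenitor sum, 1220 CPM, and replicate 5 the lowest of the group, 864 CPM. In wild type, replicate 2 had the lowest level in 12 members and the highest in 10. The median coefficient of variation over the 25 members was 9.31% in the Lin28a-induced, 7.06% in the no-Cre and 12.4% in the wild-type group.

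The 15 members below the filter had 0 to 106 reads over the 10 libraries. Foxe3, Foxi1 and Foxs1 had none, and Foxi3, Foxb2, Foxd4 and Foxi2 had 1 to 4. Foxh1, Foxn4, Foxr2, Foxr1, Foxl2 and Foxp3 had 11 to 54. Foxe1, a thyroid and oral ectoderm factor, had the most: 33, 27 and 7 reads in wild-type replicates 1 to 3, 1 to 10 reads in each Lin28a-induced and 1 to 10 in each no-Cre library. At 0.321 to 1.31 CPM the wild-type libraries lay above the other 7, at 0.0314 to 0.261 CPM, and no test was made. These genes were at or near the detection limit at this depth, which does not show that they were not expressed.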

How the data were processed

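The deposited table gives the authors' raw read counts for each gene symbol and library. Per the submitters' processing notes, alignment used STAR 2.3.1z4 with mm10, counting used featureCounts, and DESeq2 is named without a step. Per the labels' protocols, libraries were made from total RNA with a directional kit and sequenced on a NextSeq 500 as single 75-base reads. Which annotation release was used, and how strand and multiply aligned reads were handled, is not given in the sources used here.

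All 10 libraries entered 1 fit in edgeR 4.0.16 (filterByExpr, TMM, robust quasi-likelihood), with 1 coefficient per group and 3 comparisons. A standard error is the size of the log2 fold change over the square root of its F statistic. DESeq2 1.42.0, limma 3.58.1 and the other settings of the closing section were alternatives. The fit was tested on simulated data. Lengths, GC content and 3′ UTRs came from GENCODE M21, where 35654 symbols matched directly, 1783 by an older symbol and 1283 not at all. GC content and length were known for 99% of tested genes. Other software was R 4.3.3 and Python 3.11.15 with pandas 2.3.3, numpy 2.4.6 and matplotlib 3.10.9.

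Members and gene lists were chosen with earlier results of these data known. Called members and Foxd1 are given with fold changes, other tested members by level, members below the filter by reads, and each list by counts with examples, mostly the genes of smallest p. Foxc1, Foxc2, Ets1, Sox17, Cdk1, Cenpf, Sin3b, Shh, Smo, Gli3 and the Foxd1 neighbours Btf3 and Gm10320 were named after their values were seen. Values of 1 member below the filter and of 2 marker genes are not reported here.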

Additional observations from a re-analysis of the deposited data

Results flagged for a closer look

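Foxp4 in the Lin28a-induced group was marked because 1 library lay far from the other 3: replicate 5 held 72.5 CPM beside 62.1, 62.5 and 62.3 CPM, a gap of 0.962 of the group's range, above Dixon's critical value for 4 samples. Of the 26 genes examined in this way, the 25 tested members and Lin28a, it was the only one, and chance marks about 1 in 20 such groups. Foxd1 came next with a gap of 0.826, from the same library.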

How the results depend on the processing

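Between the Lin28a-induced and no-Cre groups the count of all genes called was the least stable: 476 as reported, 952 in DESeq2, 1791 with only the groups compared, 303 with a sex covariate, 40 with male libraries only (chosen after the data were seen), and 104 to 1482 with 1 library left out, the highest without wild-type replicate 2 and the lowest without no-Cre replicate 7. The forkhead count of 0 became 2 in DESeq2, 1 in limma-voom, 1 with no filter, 4 with only the groups compared, 2 with GC and length offsets, 1 with male libraries only, and 0 to 2 with 1 library left out. For Foxd1 in that comparison the log2 fold changes that passed the threshold were -0.7272 (DESeq2), -0.7429 (limma-voom), -0.727 (no filter), -0.7243 (only the groups compared), -0.7567 (GC and length offsets) and -1.03 (male libraries only), and the range with 1 library left out was -0.9553 to -0.5964. Against wild type it passed with male libraries only (-0.5723), and its range with 1 library left out was -0.5759 to -0.2505. The cause was not tested. A further fit of all Lin28a-induced and wild-type libraries, without no-Cre, had a block for each replicate number. It called 3831 of all genes and 5 of 25 forkhead genes instead of 8050 and 12. These groups share only the numbers 2 and 3, so only the 4 libraries with those numbers inform the difference in that fit. Same-numbered libraries correlated at -0.0284 and -0.0786, and the labels do not say that the numbers pair embryos. Forkhead counts against wild type otherwise stayed between 9 and 14. For the members called in any comparison and Foxd1, 824 of 892 alternative values kept direction and side of the threshold, 38 lost and 25 gained a call, and 5 changed sign, none of them called: Foxk1 against wild type with GC and length offsets (-0.0347), and, between the Lin28a-induced and no-Cre groups, Foxd3 without Lin28a-induced replicate 5 (range -0.1473 to 0.4469 with 1 library left out) and, with male libraries only, Foxd3 (-0.2898), Foxn1 (0.0085) and Foxn3 (-0.0139). Genes with few reads, such as Foxd3, Foxa3 and Foxq1, have standard errors of 0.48 or more between the Lin28a-induced and no-Cre groups. In that comparison Foxd1, at -0.7223 ± 0.1874 (SE), did not pass the threshold. Differences well above 0.48 could therefore go uncalled in the genes with few reads.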
